A study of Mus musculus with 4 samples.

Results

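Cycling endothelial cells, the lining cells of blood vessels that are copying their DNA or dividing, were described in transplanted mouse hearts. They were taken as cells with over 200 detected genes, under 20% of their unique molecular identifiers (UMIs, each a captured transcript) from mitochondrial genes, and at least 1 UMI each of *Cdh5*, *Pecam1*, *Mki67* and *Top2a*. Cells with any UMI of the leukocyte gene *Ptprc*, the mural cell gene *Pdgfrb* or the lymphatic gene *Prox1* were left out. The rule found 132 cells among 11395 endothelial cells that met it apart from *Mki67* and *Top2a*, and among 53824 deposited cells of which 44626 passed the limits on genes and mitochondrial UMIs.

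The study placed donor hearts into the abdomen of recipient mice and collected the grafts on day 5. It had 2 allogeneic grafts, in which a BALB/c heart was placed in a C57BL/6J recipient, and 2 syngeneic grafts, with C57BL/6J as donor and recipient. The mice were males aged 8 to 10 weeks, and no other allele or agent was named for either group. Whole grafts were dissociated, depleted of red cells and profiled on the 10x Chromium platform with 3′ chemistry, so donor vessels, infiltrating recipient leukocytes and remaining heart cells were captured together.

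The endothelium of an adult heart is mostly quiescent, and its cells can re-enter the cell cycle when a vessel is injured, inflamed or short of oxygen. A cycling cell first licenses its replication origins and copies its DNA in S phase under E2F transcription factors. It then builds the kinases, spindle and kinetochores of G2 and mitosis, whose genes are switched on together by the MuvB complex with B-Myb and FoxM1. *Mki67* encodes Ki-67, which coats mitotic chromosomes, and *Top2a* encodes the topoisomerase that untangles DNA before the chromosomes separate.

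Promoters of 6 cycle genes called higher in these cells are printed here, chosen because they hold the short sequences that the 2 phases of the cycle are known for. Most cycle genes do not hold them all, and the shares are given further on. The 250 bases before the start of the gene were taken from RefSeq on GRCm38.p6 and are given 5′ to 3′ on the gene's strand. For 4 mitotic genes the capitals mark TTTGAA, the letters of a form of the cell cycle homology region, which MuvB binds, and CCAAT, the letters of the NF-Y box. Each was marked on either strand. TTTGAA also lay in 16.0% of all promoters, and whether any marked letters are bound was not tested. For *Mcm5* and *Pola1*, a helicase subunit and the catalytic subunit of the polymerase that lays primers, the capitals mark the letters of an E2F site, TTTGGCGC on either strand.
Kif11: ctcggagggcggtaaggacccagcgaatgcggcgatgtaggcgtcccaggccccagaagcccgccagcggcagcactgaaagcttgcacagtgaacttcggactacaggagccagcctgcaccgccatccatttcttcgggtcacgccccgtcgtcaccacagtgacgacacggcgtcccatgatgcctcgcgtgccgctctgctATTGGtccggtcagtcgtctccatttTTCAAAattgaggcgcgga
Ccnb2: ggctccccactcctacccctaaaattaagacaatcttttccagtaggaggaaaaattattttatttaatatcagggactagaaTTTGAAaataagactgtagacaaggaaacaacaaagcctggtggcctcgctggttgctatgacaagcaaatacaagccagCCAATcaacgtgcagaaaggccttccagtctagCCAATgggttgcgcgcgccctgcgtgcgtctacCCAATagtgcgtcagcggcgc
Cdkn3: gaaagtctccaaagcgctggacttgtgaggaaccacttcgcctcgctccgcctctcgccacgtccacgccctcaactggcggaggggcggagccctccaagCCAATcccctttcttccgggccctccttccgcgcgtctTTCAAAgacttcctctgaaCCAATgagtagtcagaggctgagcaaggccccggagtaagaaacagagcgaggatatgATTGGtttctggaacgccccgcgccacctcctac
Ckap2: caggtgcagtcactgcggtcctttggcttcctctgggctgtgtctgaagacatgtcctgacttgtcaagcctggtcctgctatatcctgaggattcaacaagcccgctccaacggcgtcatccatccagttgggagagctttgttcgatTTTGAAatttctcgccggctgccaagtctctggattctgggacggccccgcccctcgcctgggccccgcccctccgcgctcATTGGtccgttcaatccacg
Mcm5: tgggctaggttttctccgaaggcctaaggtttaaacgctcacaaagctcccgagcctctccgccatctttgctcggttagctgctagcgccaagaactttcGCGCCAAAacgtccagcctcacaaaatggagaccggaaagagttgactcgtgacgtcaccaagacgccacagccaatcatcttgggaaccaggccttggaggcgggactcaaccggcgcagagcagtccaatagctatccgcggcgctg
Pola1: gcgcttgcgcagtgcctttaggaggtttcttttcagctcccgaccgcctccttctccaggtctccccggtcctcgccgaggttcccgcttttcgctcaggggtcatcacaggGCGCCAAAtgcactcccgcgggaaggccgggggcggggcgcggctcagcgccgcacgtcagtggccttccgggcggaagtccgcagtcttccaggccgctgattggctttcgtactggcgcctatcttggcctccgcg
The *Kif11* window is chr19:37376132-37376381 on the plus strand, *Ccnb2* chr9:70421555-70421804 on the minus strand, *Cdkn3* chr14:46760291-46760540 on the plus strand and *Ckap2* chr8:22185820-22186069 on the minus strand. The *Mcm5* window is chr8:75109259-75109508 on the plus strand and the *Pola1* window chrX:93632156-93632405 on the minus strand. The windows were chosen to hold no exon of the GENCODE annotation. In *Ccnb2* the 3 CCAAT boxes began 87, 54 and 21 bases before the gene start and TTTGAA began 167 bases before it. In *Kif11* both motifs stood on the opposite strand within the 45 bases before the start.

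The libraries stood apart before any gene was compared. The deposited matrix merges 4 libraries, told apart by the number at the end of each barcode, and no label or file links a library to a graft. The cells were therefore treated as 1 pooled sample without replicates, no allogeneic graft was compared with a syngeneic graft, and no gene was tested. The 4 libraries held 96020294, 115162601, 138892048 and 166079145 UMIs in order of their number. Intervals are 95% exact Poisson intervals for levels and Clopper-Pearson intervals for shares, and both cover counting error only.

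Of the 132 cycling endothelial cells, 130 came from library 3, 2 from library 1 and none from libraries 2 and 4. In library 3 they were 3.93% (3.29 to 4.65) of 3310 endothelial cells. In library 1 they were 0.0557% (0.00674 to 0.201) of 3593. Libraries 2 and 4 had 0 of 4047 and 0 of 445, which allows shares of up to 0.0741% and 0.674%. The small number of endothelial cells in library 4 leaves its share less well bounded than that of library 2. Every value below therefore describes library 3 above all, which supplied 98.9% of the UMIs of these cells, and without it 2 cells remain.

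The rule depends on depth, since a deep cell is more likely to show a UMI of both cycle genes. The cycling cells had a median of 15537 UMIs and 4556 genes, whereas the non-cycling endothelial cells of library 3, with no UMI of either gene, had a median of 6145.5 UMIs. Cells of library 3 with a UMI of only 1 of the cycle genes lay between them at 9767. To remove depth from the share, endothelial cells with at least 5000 UMIs were thinned to 5000. The share in library 3 was then 3.88% (3.10 to 4.79), 82 of 2115 cells, against 2 of 1707 in library 1, 0 of 2268 in library 2 and 0 of 324 in library 4, where up to 0.926% is allowed. Library 3 thus stood apart from libraries 1 and 2 at equal depth as well.

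Genes that the rule did not use divided the libraries in the same way. A set of 63 genes for mitotic kinases, cyclins, spindle and kinetochores, without *Mki67* and *Top2a*, was counted in the thinned cells. At least 5 UMIs of the set were found in 6.71% (5.68 to 7.87) of the endothelial cells of library 3. The corresponding shares were 0.586% in library 1, 0.309% in library 2 and 0.309% in library 4, the last resting on 1 of 324 cells. Among the 120 cycling cells with at least 5000 UMIs, chosen on their full counts, the median was 35 UMIs of the set, with a range from 0 to 138, and 83.3% reached 5. Non-cycling cells of library 3 had a median of 1, and 0.939% of them reached 5, whereas 14.4% of the cells with 1 of the cycle genes did.

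Other cell types cycled in the same grafts, with another spread over the libraries. Among cells with *Ptprc* and no endothelial gene, 7.53% had both cycle genes in library 4, 3.30% in library 3, 2.78% in library 1 and 0.0706% in library 2. Among cells with the fibroblast collagen gene *Col1a1*, the share was 1.66% in library 3 and 2.96% in library 4. Leukocytes rich in *S100a8* and *S100a9*, transcripts of granulocytes, which have left the cell cycle, gave a background of 0.271% (4 of 1474 cells) at a median of 4076.5 UMIs, against 6411 for the endothelial cells of library 3. After thinning to 5000 UMIs this background was 0.775% (0.212 to 1.97), 4 of 516 cells, of which 3 came from library 4. The endothelium of library 3, at 3.93% and at 3.88% after thinning, stood above these pooled values. The endothelial shares of libraries 1 and 2 lay below them. Library 4, with 0 of 445 cells, allows up to 0.674% and cannot be placed against 0.271%.

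**Figure D1:**
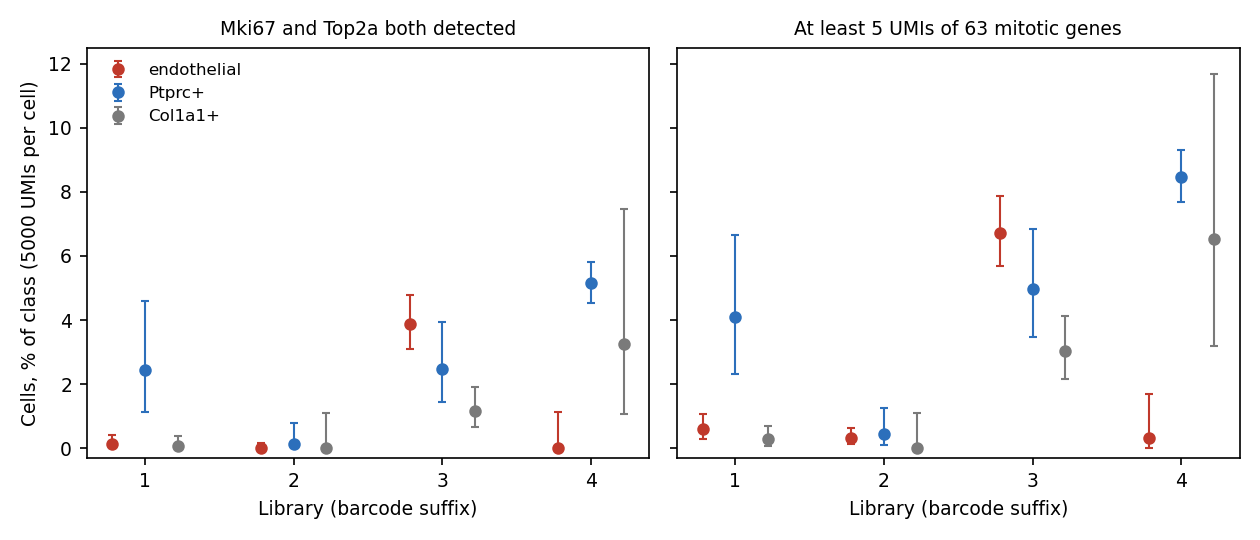
Share of endothelial, *Ptprc*+ and *Col1a1*+ cells in each library (x axis) that had a UMI of *Mki67* and *Top2a* (left) or at least 5 UMIs of 63 mitotic genes (right), in percent of cells thinned to 5000 UMIs. Points are shares and bars 95% Clopper-Pearson intervals; endothelial cells reached 3.88% and 6.71% in library 3 and under 0.6% elsewhere, while the highest *Ptprc*+ shares were in library 4.

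Within the selected cells the marker counts varied widely. *Mki67* ranged from 1 to 72 UMIs per cell with a median of 9, and *Top2a* from 1 to 51 with a median of 6.5. *Cdh5*, which encodes the adherens junction protein VE-cadherin, ranged from 1 to 104 with a median of 19.5, and *Pecam1*, a junctional adhesion receptor, from 1 to 91 with a median of 15. Most cells were above the minimum of the rule for all 4 genes. An exception was a cell of library 3 with 51833 UMIs, of which 2 were *Cdh5* and 1 *Pecam1*. It had 1163 UMIs of the mitotic genes described below, the most of any cycling cell. The cell was kept, and its part in the pooled levels was not tested. Just inside the rule, 7 cells had exactly 1 UMI each of *Mki67* and *Top2a*, and 95 cells had at least 2 of each. Just outside it, 122 endothelial cells had 1 *Mki67* UMI and no *Top2a*, and 222 had 1 *Top2a* UMI and no *Mki67*.

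The exclusion genes removed more cells than they left. Before them, 277 cells had all 4 required genes, 15, 1, 225 and 36 in libraries 1 to 4. In library 3, 34 of the 225 had *Ptprc*, 61 had *Pdgfrb* and 19 had *Prox1*, whereas all 36 cells of library 4 had *Ptprc*. Doublets, droplets holding more than 1 cell, were looked for by simulation, and 2 of the 132 cells were marked and kept. Barcode sequences seen in more than 1 library numbered 308, and 3 of the 132 cells carried such a sequence.

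The next comparison asked which genes differed between cycling and non-cycling endothelial cells. Levels are CPM, the UMIs of a gene per 1000000 UMIs of nuclear genes in the cells in question, and the non-cycling level was weighted to the libraries of the cycling cells. Fold changes are log2 ratios of CPM plus 1, and a gene was called higher or lower when it differed at least 2-fold in the pooled cells and lay on the same side in library 3. Of 8518 genes with a mean of at least 10 CPM, 447 were called higher, 5.25%, and 77 lower, 0.904%, around a median log2 fold of 0.02. These shares are the background for the counts of called genes in the lists below, except where stated. With non-cycling cells also matched on depth, 425 of the 447 but 26 of the 77 were still called, and with unweighted pooled cells as the reference 39 of the 77 were. The rule selects on 2 cycle genes, so higher cycle genes describe what was selected and are no separate evidence that the cells cycled. *Mki67* at 606 CPM and *Top2a* at 540 CPM were left out of the comparison.

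**Figure D2:**
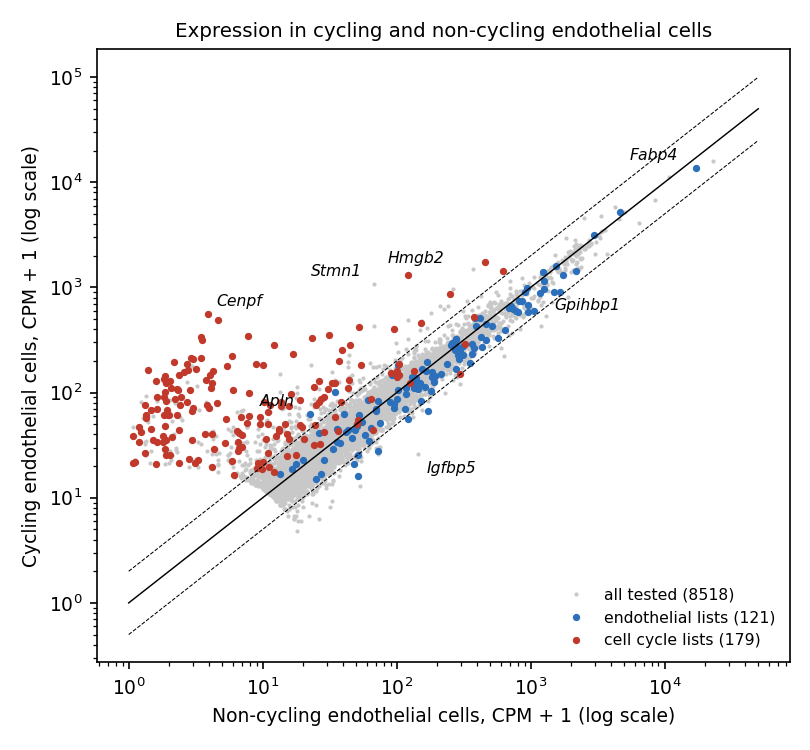
Level of each of 8518 genes in non-cycling (x axis) and cycling (y axis) endothelial cells, in CPM + 1 on log scales, with cell cycle lists in red, endothelial lists in blue and the rest in grey. The solid line marks equal levels and the dashed lines 2-fold; 153 of 179 cell cycle genes lay above the upper dashed line, and endothelial genes such as *Fabp4* and *Gpihbp1* lay near the solid line.

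Genes of mitosis differed most. All 19 tested mitotic kinases, cyclins and their partners were called higher, with a median log2 fold of 5.06. In non-cycling cells they summed to 36.5 CPM, so most could pass the filter of 10 CPM only through the cycling cells. Their calls were largely fixed by that filter, and the count cannot be set against the background of 5.25%. The same limit holds for other cycle genes nearly absent from non-cycling cells. Together the 19 genes made up 0.175% of the UMIs of cycling cells and 0.00365% of those of non-cycling cells. *Ccnb1* and *Ccnb2* encode the B-type cyclins that start mitosis. *Ccnb1* stood at 122 CPM (109 to 136) in cycling cells and 0.913 (0.582 to 1.37) in non-cycling cells, a log2 fold of 6.00. *Ccnb2* stood at 212 (195 to 230) against 2.49 (1.92 to 3.19), a log2 fold of 5.93. *Cdk1*, the kinase these cyclins activate, was at 346 (324 to 369) against 6.75 (5.77 to 7.83). Its level in the non-cycling cells of the 4 libraries was 1.54, 0.704, 6.80 and 5.19 CPM, all far below the cycling cells. *Ccna2*, cyclin A2, reached a log2 fold of 6.49. *Plk1* and *Aurkb*, kinases that act on centrosomes and on chromosome attachment, reached 5.41 and 5.64, and *Foxm1*, which drives transcription of this programme, 4.74.

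The 44 tested spindle and kinetochore genes were likewise all called higher, with a median log2 fold of 5.18 and the same limit from the filter. They made up 0.542% of UMIs in cycling cells, 40.7 times the 0.0133% in non-cycling cells. *Cenpf*, a large protein of the outer kinetochore, had the largest fold of all genes tested. It stood at 553 CPM (525 to 582) against 2.92 (2.30 to 3.66), a log2 fold of 7.14, and 81.8% of cycling cells had a UMI of it against 1.90% of the shallower non-cycling cells of library 3, or 66.7% against 1.10% after thinning to 5000 UMIs. In the non-cycling cells of libraries 1 to 4 it was at 0.794, 0.960, 2.94 and 0.472 CPM, and cells of library 3 with only 1 of the cycle genes were at 26.3 CPM. *Birc5*, survivin, a subunit of the chromosomal passenger complex, stood at 335 against 2.49 CPM, and *Cdca8*, borealin of the same complex, at 188 against 1.74. *Prc1*, which bundles the microtubules of the central spindle, stood at 318 against 2.53 CPM. *Kif11*, the motor that pushes the spindle poles apart and whose promoter is printed above, stood at 126 (113 to 140) against 0.907 (0.576 to 1.36).

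Genes that end mitosis by protein destruction followed. Of 13 tested genes of the anaphase-promoting complex and its partners, 12 were called higher, with a median log2 fold of 4.48. *Ube2c*, the enzyme that hands ubiquitin to that complex, stood at 486 CPM (460 to 514) against 3.65 (2.95 to 4.47). *Cdc20*, which brings the complex its substrates, stood at 220 against 4.87. *Ube2s*, which lengthens the ubiquitin chains, was abundant without cycling as well, at 869 against 251, a log2 fold of 1.79. *Pttg1*, securin, was the gene of this list that was not called, at 43.0 CPM (35.5 to 51.7) in cycling and 65.2 (62.1 to 68.3) in non-cycling cells.

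Chromosome proteins were the most abundant of the cycle lists. Of 21 tested genes for condensin, cohesin, histone and chromatin proteins, 20 were called higher, with a median log2 fold of 3.02 and 0.823% of UMIs in cycling cells. *Hmgb2*, a DNA-bending protein, stood at 1308 CPM (1265 to 1353) against 121 (117 to 125). *H2afz*, the histone variant H2A.Z, stood at 1746 against 452. *Smc2* and *Smc4*, the core of condensin, stood at 332 against 22.5 and 423 against 51.2. *Top1*, the topoisomerase that relaxes DNA during transcription, was the member not called, with a log2 fold of -0.18. *H2afz*, *Hmgb1* and the tubulins below have near-identical copies in the genome, and how their reads were shared is uncertain.

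S-phase genes were higher by less. Of 15 tested origin licensing genes 14 were called higher, with a median log2 fold of 2.17, and of 29 tested DNA synthesis genes 23, with a median of 1.91. *Mcm5*, of the replicative helicase, stood at 74.6 CPM (64.5 to 85.8) against 10.4 (9.18 to 11.7). *Cdc45*, which completes that helicase, stood at 34.6 against 1.98, and *Gmnn*, geminin, which blocks repeated licensing, at 80.7 against 9.20. *Clspn* and *Uhrf1*, a replication checkpoint adaptor and a keeper of DNA methylation, had log2 folds of 4.17 and 3.41. *Pcna*, the sliding clamp of the polymerases, was at 160 (145 to 176) against 99.2 (95.4 to 103), a log2 fold of 0.68, and was not called. It was found in 43.0% of the non-cycling cells of library 3 and in 81.1% of cycling cells, and after thinning in 36.0% and 47.5%, so its transcript alone did not separate them.

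Nucleotide supply showed 10 of 19 tested genes called higher, with a median log2 fold of 1.08. *Tk1*, thymidine kinase, stood at 108 CPM against 1.07, and *Rrm2*, the regulated subunit of ribonucleotide reductase, at 145 against 3.06. *Tyms*, thymidylate synthase, was closer, at 131 against 43.1. The genes that set entry into S phase were mixed, 11 higher and 1 lower of 19. The Cdk partners *Cks1b* and *Cks2* stood at 184 against 9.01 and 352 against 30.1 CPM, and *E2f8*, a repressor among the E2F factors, at 20.6 against 0.0811. *Ccnd1*, cyclin D1, which links growth signals to the cycle, differed little, at 522 against 379. *Ccnd2*, cyclin D2, stood at 149 (134 to 164) against 298 (292 to 305), just past 2-fold. Once non-cycling cells were also matched on depth, *Ccnd2* was at -0.98 and no longer called. Of 12 tested DNA repair genes 6 were called higher, among them *Brca1*, of homologous recombination, at 31.6 against 0.320.

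Inhibitors of the cycle and p53 targets did not move as a group, with 2 of 22 called higher and 1 lower and a median log2 fold of -0.03. *Cdkn2c* and *Cdkn2d*, INK4 inhibitors of cyclin D kinases, stood at 149 against 12.6 and 188 against 62.3 CPM, log2 folds of 3.47 and 1.58. *Cdkn1c*, which encodes the inhibitor p57, stood at 97.5 (85.9 to 110) against 227 (221 to 233), a log2 fold of -1.21. Its non-cycling level in libraries 1 to 4 was 276, 96.7, 227 and 27.1 CPM, so the cycling cells of library 3 lay below the non-cycling cells of the same library but not below those of libraries 2 and 4. *Cdkn1a*, which encodes p21, was abundant in both states, at 681 against 914 CPM. *Trp53* stood at 218 against 134 and *Klf2*, a flow-induced factor that favours quiescence, at 1405 against 1689, neither of which was called.

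Of the highest genes in no cycle list, chosen by size alone, most are known cycle genes. *Mxd3*, a Max-binding repressor, stood at 92.1 CPM against 0.355. *Esco2*, which acetylates cohesin during replication, stood at 80.3 against 0.238, and *Pclaf*, a factor that binds PCNA, at 179 against 1.97. *Cep55*, which recruits the final abscission machinery, stood at 82.6 against 0.631, and *Lockd*, a long non-coding RNA made beside *Cdkn1b*, at 125 against 1.74. Others of the 15 were *Ska1* and *Knstrn* of the spindle, the formin *Diaph3* and *Neil3* of DNA repair, with log2 folds from 5.16 to 5.45.

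Cytoskeletal genes were called higher in 7 of 17 cases, with a median log2 fold of 0.58. *Stmn1*, stathmin, which takes microtubules apart, stood at 1077 CPM (1038 to 1117) against 66.4 (63.3 to 69.7) and had a UMI in 95.5% of cycling and 32.8% of non-cycling cells, or 87.5% and 24.1% after thinning. The tubulins *Tubb6*, *Tubb5* and *Tuba1b* had log2 folds of 2.36, 2.00 and 1.89. *Vim*, vimentin, was at 4584 against 2493 CPM and was not called.

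**Figure D3:**
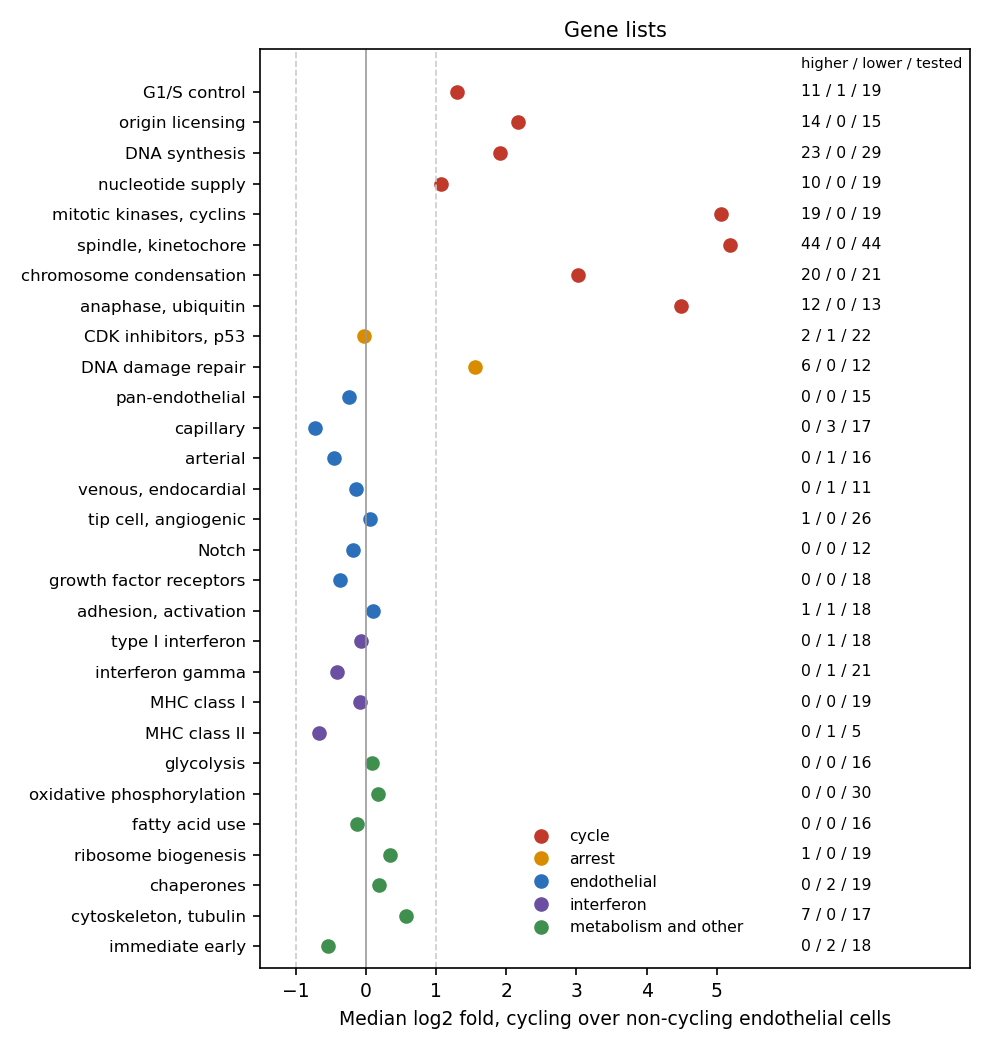
Median log2 fold of the tested genes of each list, cycling over non-cycling endothelial cells (x axis), with the number of genes called higher, called lower and tested at the right and the dashed lines at 2-fold. Mitotic kinase and spindle lists stood at 5.06 and 5.18, S-phase lists between 1.08 and 2.17, and endothelial, interferon and metabolic lists within 1 of 0.

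General endothelial genes were close to their level in non-cycling cells. Of 15 pan-endothelial genes besides those of the rule none was called in either direction, with a median log2 fold of -0.24 against 0.02 for all genes. *Erg*, a transcription factor that maintains the endothelial state, stood at 139 CPM (125 to 154) against 128 (124 to 133). *Kdr* and *Flt1*, receptors for vascular endothelial growth factor, stood at 890 against 1178 and 908 against 1488. The rule genes *Cdh5* and *Pecam1* were at 1309 against 1397 and 1019 against 1098. The list made up 0.801% of UMIs in cycling and 0.998% in non-cycling cells, and the 18 tested growth factor receptors, none of them called, 0.515% and 0.678%.

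Capillary genes were abundant in cycling cells, at a somewhat lower level than in non-cycling cells. The 17 capillary genes had a median log2 fold of -0.72, with 16 of them below 0, and made up 2.05% of UMIs against 2.70%. *Fabp4*, the fatty acid carrier of cardiac capillaries, was at 13668 CPM against 17243, and at 278 in the *Ptprc*+ cells of library 3. As 90.7% of those leukocytes had a UMI of it, its presence in a cell marks nothing. *Gpihbp1*, which holds lipoprotein lipase on the capillary wall, was at 967 (930 to 1005) against 1259. It was found in 89.4% of cycling and 91.8% of the shallower non-cycling cells of library 3, and in 87.5% and 91.6% after thinning to 5000 UMIs. The background in the *Ptprc*+ cells of library 3 was 14.99% at a median of 10079 UMIs and 7.43% after thinning. Of the 17 genes 3 were called lower, against the background of 0.904%. These were *Aqp7*, a glycerol channel, at 65.9 against 170, *Timp4*, a protease inhibitor, at 27.0 against 72.2, and *Car4*, carbonic anhydrase 4, at 55.2 against 121. With non-cycling cells matched on depth, their log2 folds were -0.92, -0.85 and -0.67 and none was called.

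Genes of larger vessels were called in few cases. The arterial list had 1 of 16 genes called lower, *Alpl*, alkaline phosphatase, at 15.2 CPM (10.9 to 20.7) against 50.7 (47.9 to 53.5), and it was also lower with depth matched. *Gja5*, the arterial connexin 40, stood at 16.0 (11.5 to 21.6) against 26.3 (24.4 to 28.4), and was not called. With depth matched its log2 fold went from -0.69 to -1.55, and it was then called lower. The venous and endocardial list had 1 of 11 called lower, *Selp*, P-selectin, at 19.8 against 46.7, which was at a log2 fold of -0.99 with depth matched. *Vwf*, the von Willebrand factor of larger vessels, was not called, with a log2 fold of -0.21.

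Genes of sprouting vessels were mostly at the level of non-cycling cells. Of 26 tip and angiogenic genes, 1 was called higher, 3.85% against 5.25% of all genes tested, with a median log2 fold of 0.06. The count is thus no more than the background. The gene called was *Apln*, apelin, a peptide made by tip cells, at 61.3 CPM (52.2 to 71.5) against 21.4 (19.7 to 23.3), a log2 fold of 1.47. Its non-cycling level in libraries 1 to 4 was 23.5, 37.9, 21.4 and 64.4 CPM, so cycling cells lay above libraries 1 to 3 and level with library 4. The 2 cycling cells of library 1 had no UMI of it. *Aplnr*, its receptor, stood at 317 against 463, and *Angpt2*, *Dll4* and *Esm1*, further markers of sprouting cells, had log2 folds of 0.33, -0.24 and -0.20. None of 12 Notch genes was called.

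Where in the vascular tree the cycling cells stood was also asked with single markers among the thinned endothelial cells of library 3. Of cells with a UMI of *Apln*, 12 of 153 cycled, 7.84% (4.12 to 13.3), against 3.57% (2.79 to 4.49) of 1962 cells without. Cells with *Gpihbp1* cycled in 3.57% (2.79 to 4.50) and the 182 cells without in 7.14% (3.86 to 11.9). Both pairs of intervals overlapped. Cells with *Vwf* were cycling in 2.20% (0.954 to 4.28) against 4.23% (3.33 to 5.28), and cells with *Gja5* in 2 of 110. The pair that stood apart was *Ifit1*, an interferon-induced inhibitor of viral translation, with 5 of 507 cells, 0.986% (0.321 to 2.29), against 77 of 1608, 4.79% (3.80 to 5.95). *Cxcl9*, a chemokine induced by interferon gamma, showed 3.51% against 4.04%. The markers were chosen with earlier results known and the 8 contrasts were not tested, so this difference is a description of 1 library. Of these markers only *Gpihbp1* has a background share, given above. How far a UMI of *Ifit1* marks expression was not tested.

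**Figure D4:**
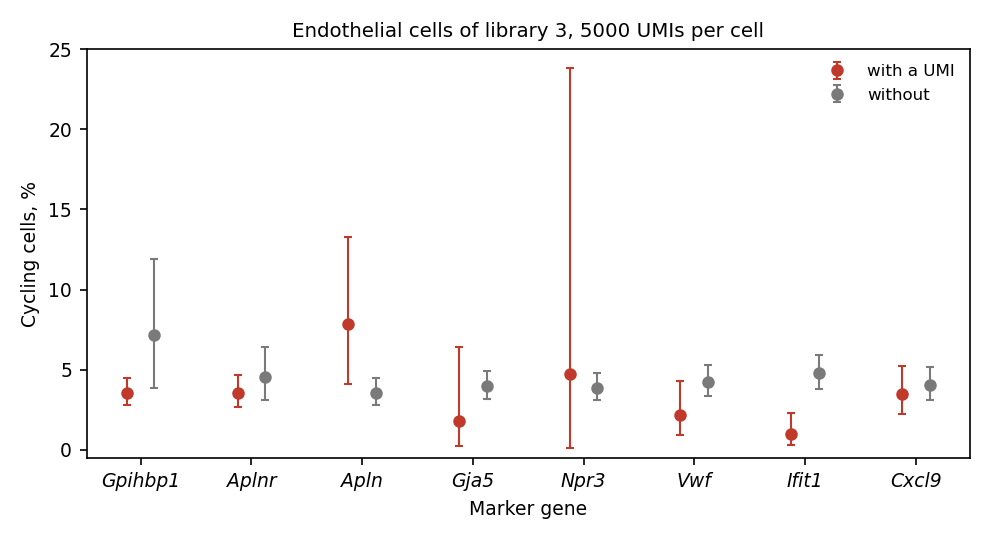
Share of endothelial cells of library 3 that cycled, in percent of cells thinned to 5000 UMIs (y axis), among cells with a UMI of each marker gene (red) and without (grey); bars are 95% Clopper-Pearson intervals. The intervals are apart for *Ifit1*, at 0.986% and 4.79%, and overlap for the other 7 markers.

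Interferon and antigen presentation genes were near the level of non-cycling cells of the same library. Of 18 type I interferon genes 1 was called lower, *Ifit1*, at 63.2 CPM (53.9 to 73.6) against 129 (125 to 134), and of 21 interferon gamma genes 1, *Iigp1*, a GTPase against intracellular parasites, at 403 against 825. With depth matched their log2 folds were -0.76 and -0.82 and neither was called. *Irf1*, a factor induced by interferon gamma, stood at 354 against 686 and was not called. The interferon gamma list made up 0.588%, 0.0754%, 0.319% and 2.94% of UMIs in the non-cycling cells of libraries 1 to 4 and 0.217% in cycling cells, so the libraries differed far more than the cycling state. None of 19 MHC class I and peptide processing genes was called, with *B2m*, the light chain, at 2066 against 1937 and *H2-K1*, a heavy chain, at 1731 against 1734. Of 5 tested MHC class II genes *H2-Eb1* was called lower, at 12.6 against 30.1, and was at a log2 fold of -0.34 with depth matched.

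Adhesion and stress genes showed few calls. Of 18 adhesion and activation genes 1 was called higher and 1, *Selp*, lower. *Vcam1*, a leukocyte adhesion receptor, was at 145 CPM against 92.1 and was not called. Of 19 chaperones the heat shock genes *Hspa1a* and *Hspa1b* were called lower, at 811 against 1898 and 534 against 1310, also with depth matched. Of 18 immediate early genes, which respond within minutes to stimuli such as tissue dissociation, *Egr1* at 720 against 1443 and *Egr2* at 11.8 against 25.4 were called lower, and the list had a median log2 fold of -0.54. Neither was called with depth matched.

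Energy genes did not separate the states. None of 16 glycolytic, 30 oxidative phosphorylation and 16 fatty acid genes was called, with median log2 folds of 0.09, 0.17 and -0.13. *Gapdh*, of glycolysis, stood at 1230 CPM against 861. The 19 tested ribosome biogenesis genes all lay above 0, with a median log2 fold of 0.35 against 0.02 for all genes. Of them *Npm3*, a nucleolar chaperone, was called higher, at 39.6 against 17.5. With unweighted pooled cells as the reference the summed log2 ratio of the list turned to -0.10.

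The genes with the lowest folds were of mixed origin. *Igfbp5*, which binds insulin-like growth factors, stood at 25.1 CPM (19.4 to 32.0) against 143 (139 to 148), a log2 fold of -2.46 that became -1.38 with depth matched. *Scgb3a1*, a secretoglobin, stood at 11.8 against 51.9, *Cyp26b1*, which degrades retinoic acid, at 7.23 against 30.6, and *Ptn*, pleiotrophin, at 8.38 against 31.9. *Slfn5*, of the interferon-induced Schlafen family, was the most abundant, at 432 (407 to 458) against 1202 (1189 to 1216), and 74.2% of cycling cells had a UMI of it against 93.2% of the shallower non-cycling cells. *Il1b*, *Tyrobp* and *Lgals3*, genes of myeloid cells, and *Hbb-bt*, a haemoglobin chain, were also among the 15. With depth matched *Il1b*, *Tyrobp* and *Lgals3* had log2 folds of -0.88, -0.43 and -0.65 and none was called, whereas *Hbb-bt* was at -2.21 and called.

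Transcripts of other cells were present at low levels and moved with the comparison. Macrophage markers made up 0.0173% of UMIs in cycling cells and 0.0384% in non-cycling cells, with 7 of 9 tested called lower and *Lyz2*, lysozyme, the most abundant at 57.5 CPM. They stood at 0.0165%, 0.0511%, 0.0386% and 0.0844% in the non-cycling cells of the 4 libraries. With depth matched none of the 7 was called, and *Lyz2* was at a log2 fold of -0.22. Red cell genes stood at 0.388% against 0.669%, led by *Hbb-bs* at 2096 CPM, with *Slc4a1* at 0 in cycling cells, and depth matching increased that gap. Their part in the genes called lower was not tested.

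Markers of contractile and stromal cells were also somewhat lower in sum. Pericyte and smooth muscle markers stood at 0.0309% against 0.0528%, with 1 of 6 called lower, *Rgs5*, at 120 CPM against 295. Fibroblast markers stood at 0.127% against 0.143%, led by *Col3a1* at 320 CPM. Cardiomyocyte markers stood at 0.0388% against 0.0494%, led by *Myl2* at 73.9 CPM. None of these 8 and 10 genes was called. With depth matched *Myl2* went from a log2 fold of -0.14 to 0.47 and *Tnnt2* from -0.50 to -0.38. Cardiomyocyte genes then lay on both sides of 0. T and NK cell markers were at 0.000799% against 0.000803%, with *Cd3e*, *Cd8a*, *Trbc2*, *Klrb1c* and *Gzma* at 0. B cell markers were at 0.000381% with *Ms4a1* and *Fcmr* at 0. Granulocyte markers were at 0.00324% against 0.00401%, led by *S100a8* at 16.8 CPM. Platelet markers were at 0.00266% against 0.00531%, led by *Pf4*, which was called lower but not with depth matched, at a log2 fold of -0.51. Schwann cell markers were at 0.00209% with *Sox10* at 0, lymphatic markers at 0.00994% with *Reln* at 0, and mesothelial markers at 0.0108% with *Upk3b*, *Upk1b* and *Lrrn4* at 0, nearly all of it *Wt1* at 107 CPM.

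The balance of S phase and mitosis was read from 71 S-phase genes (licensing, synthesis and nucleotide lists) and 76 mitotic genes (kinase, spindle and ubiquitin lists). Cycling endothelial cells held 11023 UMIs of the former and 24831 of the latter, a ratio of 0.444 with an S-phase share of 30.7% (30.3 to 31.2). In the non-cycling cells of library 3 the ratio was 2.67, and in those with 1 of the cycle genes 1.95. *Mki67* and *Top2a* are known to peak in G2 and mitosis, and how far the rule sets this ratio was not tested.

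Single cells covered the whole range. In the same 120 cells thinned to 5000 UMIs, S-phase genes gave 3 to 87 UMIs per cell with a median of 19, and mitotic genes 1 to 178 with a median of 48.5. Mitotic UMIs outnumbered S-phase UMIs in 86 of them and were fewer in 31, with 9 cells within 2 UMIs of equal counts. The 2 cells of library 1 lay on either side, with 23 S-phase and 8 mitotic UMIs in the first and 38 and 110 in the other. Of 187 thinned cells of library 3 with 1 of the cycle genes, 149 had more S-phase UMIs and 31 more mitotic UMIs. Of 1810 thinned non-cycling cells of library 3, 1584 had more S-phase UMIs and 130 more mitotic UMIs, with medians of 7 and 2. More S-phase than mitotic UMIs therefore do not place a cell in S phase.

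**Figure D5:**
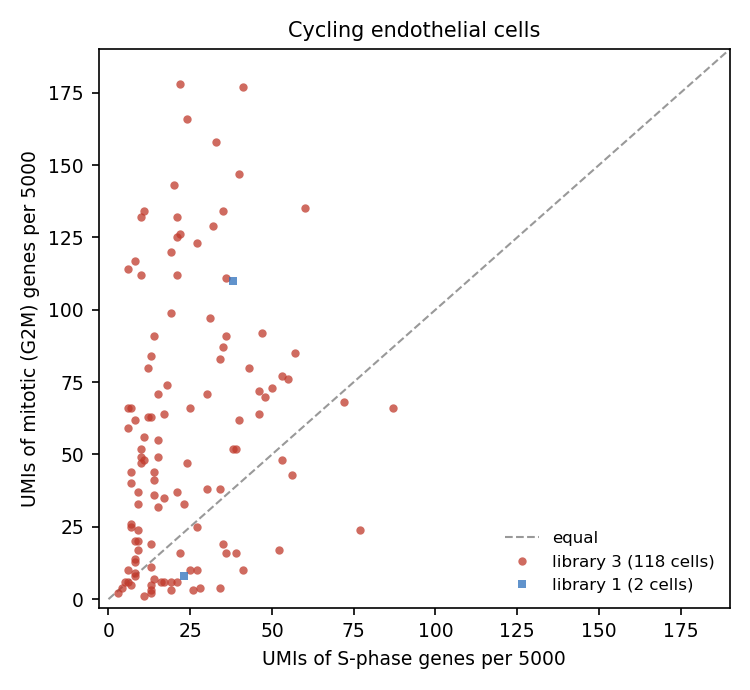
UMIs of 71 S-phase genes (x axis) and 76 mitotic genes (y axis) in each of 120 cycling endothelial cells thinned to 5000 UMIs, with the dashed line at equal counts. Cells of library 3 are red circles and the 2 of library 1 blue squares; 86 cells lay above the line, with up to 178 mitotic UMIs, and 31 below it.

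Cycling *Ptprc*+ and *Col1a1*+ cells put the balance in context. Pooled values set the endothelial cells of library 3 mostly against library 4 for *Ptprc*+ cells, with 479 of 528, and against libraries 3 and 4 for *Col1a1*+ cells, so values within library 3 are given as well. The S-phase to mitotic ratio was 1.20 in cycling *Ptprc*+ cells and 0.397 in 45 cycling *Col1a1*+ cells. Within library 3 it was 0.442 for endothelial cells, 0.666 for 33 *Ptprc*+ cells and 0.367 for 31 *Col1a1*+ cells. The endothelial cells thus lay below the *Ptprc*+ and above the *Col1a1*+ cells of the same library.

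Against all cycling *Ptprc*+ cells the endothelial cells had more spindle and fewer nucleotide transcripts, and the nucleotide difference was smaller within library 3. Of 8801 genes tested 25.5% were 2-fold higher in endothelial cells and 14.2% lower. Of 44 spindle and kinetochore genes 24 were higher and none lower, with a median log2 fold of 1.06 against 0.20 for all genes. *Cenpf* stood at 553 CPM against 102 (96.9 to 108), and *Pimreg*, a mitotic regulator of chromatin, at 164 against 16.0. Of 20 nucleotide genes 9 were lower and none higher. *Dut*, which keeps uracil out of DNA, stood at 129 against 380 and *Shmt1*, of folate metabolism, at 1.90 against 30.7. Of 17 glycolytic genes 12 were lower and 1 higher. *Ccnd1* stood at 522 CPM in endothelial cells against 47.6 in *Ptprc*+ cells, a log2 fold of 3.43. Within library 3 spindle genes made up 0.539% (0.531 to 0.548) of UMIs in endothelial and 0.347% (0.332 to 0.361) in *Ptprc*+ cells, and glycolytic genes 0.331% and 0.513%. Nucleotide genes stood there at 0.136% (0.131 to 0.140) and 0.157% (0.148 to 0.167). In that library *Cenpf* was at 551 against 175 CPM and *Ccnd1* at 523 against 112, whereas *Dut*, at 129 (115 to 143) against 140 (113 to 173), and *Shmt1*, at 1.92 against 3.12, did not differ beyond counting error.

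Against cycling *Col1a1*+ cells the cycle genes were much closer. Of 8911 genes tested 16.0% were higher in endothelial cells and 12.2% lower, but of 19 mitotic kinases and cyclins none was called, and of 44 spindle genes 1 was higher and 2 lower, with a median log2 fold of 0.09. *Cenpf* stood at 553 CPM against 507 (469 to 547). *Timeless*, a fork protection factor, stood at 123 against 18.3, although it was at 126 in non-cycling endothelial cells, and *Ccnd1* at 522 against 168. *Pttg1* stood at 43.0 against 129 and *Plk1* at 68.5 against 123, the latter not called. The 45 cells bound these levels less tightly than those of the larger classes.

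The promoter letters printed above were counted over all genes with a RefSeq entry, as a description without a test. Of the 75 mitotic kinase, spindle and ubiquitin genes called higher, 63 had an entry, with 70 promoters. TTTGAA lay in 27.1% of these against 16.0% of all 32851 promoters, CCAAT in 70.0% against 33.8%, and both together in 24.3% against 5.55%. Among the 47 promoters of S-phase genes called higher, an E2F site (TTTCCCGC or TTTGGCGC) lay in 12.8% against 1.30% of all promoters, and CCAAT in 53.2%. TTTAAA, the other form of the cell cycle homology region, lay in 15.7% of the mitotic set against 12.1%. In the 83 promoters of genes called lower, TTTAAA lay in 20.5% and CCAAT in 28.9%, TTTGAA in 9.64%, and neither TTTGAA together with CCAAT nor an E2F site was found. All motifs were searched on both strands in 250 bases, TTTAAA reads alike on both, and no motif contains another. Promoters of all genes tested held TTTGAA in 10.3%, CCAAT in 35.1% and an E2F site in 2.62%.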

How the data were processed

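The authors deposited raw UMI counts, produced by Cell Ranger on mm10, as 1 merged matrix of 53824 barcodes by 30905 genes. The submitters' notes also name CASAVA 1.8 and Seurat. Libraries 1 to 4 are the numbers that end the barcodes, and every per-sample column was used. Cells needed over 200 genes and under 20% mitochondrial UMIs, and the 13 mitochondrial genes were dropped.

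The cells were 1 pooled sample, so conditions were not compared and genes were not tested; Dixon's ratio over the 4 libraries was the exception to a description without tests. CPM values carry exact Poisson intervals and shares of cells Clopper-Pearson intervals, all at 95%. Where no cell was found, 3 cells set the upper limit. Fold changes are log2 ratios of CPM + 1, over genes with a mean of at least 10 CPM, without the 7 genes of the rule. Calls needed 2-fold and the same side in each library with at least 20 cycling cells, which was library 3. The non-cycling reference was weighted by library, and as an alternative also by 10 bins of depth, which is called depth matched. Cells were thinned to 5000 UMIs with seed 20, and shallower cells were left out, 4981 of 11395 endothelial cells. Doublets were simulated per library from 2000 variable genes and 10 components, and the 5% of cells with the most simulated cells among 50 neighbours were marked. Of 703 list gene names 696 were found, and 3 of these that stood on more than 1 line of the matrix were left out of list counts. The cells, gene lists and markers were chosen with earlier results of these data known. The text names list genes and the 15 highest, the 15 highest in no cycle list and the 15 lowest called genes.

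On simulated counts for the cycling against non-cycling comparison (8281 genes tested, 200 changed), all changed genes had the right direction. Calls were made for 45% of the 2-fold higher, 37.5% of the 2-fold lower and 100% of the 4-fold and 8-fold genes, and for 0 of 8081 unchanged genes. The counts were drawn as Poisson sums around the non-cycling levels, without spread between cells or a difference in depth. They therefore do not show how often such differences lead to a call in the real cells. Alternatives changed the cell limits, the UMI minimum, the exclusion genes, doublets, the reference, the pseudocount, the level filter and the libraries. Promoters are RefSeq entries on GRCm38.p6, matched by symbol. The 6 shown have the highest folds among genes with a single promoter entry that holds the motifs, 4 of 14 mitotic and 2 of 5 S-phase genes. The software was scikit-learn 1.9.0, scipy 1.17.1, pandas 2.3.3, numpy 2.4.6 and matplotlib 3.10.9 on Python 3.11.15. A few listed genes are not reported here.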

Additional observations from a re-analysis of the deposited data

Results flagged for a closer look

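Library 3 lay far from the other 3 libraries in the share of endothelial cells that cycled, by Dixon's ratio of its gap to the nearest library over the whole range. The ratio was 0.986 for the share of 3.93% with *Mki67* and *Top2a*, 0.970 for the share of 3.88% after thinning to 5000 UMIs and 0.957 for the share of 6.71% with at least 5 UMIs of the 63 mitotic genes. The 3 shares come from the same cells and count as 1 pattern. The same ratios for *Ptprc*+ and *Col1a1*+ cells lay between 0.447 and 0.643 and did not pass. Chance takes about 1 in 20 groups past the critical value, and the 4 libraries are samples without a known group.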

How the results depend on the processing

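The share of endothelial cells that cycled, 1.16%, was 0.834% with at least 2 UMIs of each cycle gene, 0.365% (9 of 2465 cells) with 0 UMIs also of *Col1a1*, *Dcn*, *Rgs5*, *Tyrobp*, *Cd3e* and *Cd79a*, and 0.289% after thinning to 1000 UMIs. Chosen after seeing the data, it was 1.73% with no exclusion genes. By the 63 mitotic genes in cells thinned to 5000 UMIs, also chosen then, it was 2.49%. The rule itself gave 1.31% at that depth. Leaving out 1 library at a time gave 0.0247% to 1.80%, the lowest without library 3. The 447 higher genes became 1104 with the 6 further exclusions (353 of them shared), 135 with a mean of at least 50 CPM and 742 with no filter, and 445 to 2310 without 1 library at a time. The 77 lower genes became 132 with 2 UMIs, 939 with the 6 exclusions, 196 with libraries pooled (39 shared), 24 with 10 CPM added, 21 with a mean of 50 CPM and 368 with no filter, and 72 to 2077 without 1 library. Matching on depth gave 483 higher (425 shared) and 52 lower (26 shared). The counts of 2310 and 2077 are those without library 3, from the 2 cells of library 1, and without any other library they lay within 445 to 447 and 72 to 77. The S-phase to mitotic ratio of 0.444 became 0.375 with 2 UMIs, 0.295 with the 6 exclusions, 0.547 with no exclusion genes and 0.442 to 0.556 without 1 library.

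Signs turned in 13 cases. The log2 ratio of summed MHC class II genes became 0.23 with depth matched and 0.45 with no exclusion genes, and that of ribosome biogenesis -0.0047 with the 6 exclusions and -0.10 with libraries pooled. With no exclusion genes macrophage markers became 0.66, *Ccl21a* (1 of the lines with that symbol) 0.73, *Il1b* 0.43, *Tyrobp* 0.47 and *Lgals3* 1.18. With the 6 exclusions *Ccl21a* became 0.53 and *Ccne2* -2.38. Leaving out 1 library at a time moved *Lgals3* between -1.62 and 2.47 and *Apln* between -4.61 and 1.49, the far values without library 3. For single genes and lists 1045 other values moved little and 156 moved without a change of sign. The causes were not tested. No paired analysis was possible because no library is linked to a graft and genes were not tested. The number of endothelial cells limits the share in library 4, and depth the levels of low genes in 132 cells.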

Other observations

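Among the 120 cycling cells thinned to 5000 UMIs, the 31 with more S-phase UMIs and the 86 with more mitotic UMIs also differed in genes that did not sort them. The former had a median of 23517 UMIs before thinning and the latter 15207, so depth moved with this division and its part was not tested. Capillary genes made up 2.46% (2.42 to 2.49) of UMIs in the 31 cells and 1.88% (1.86 to 1.90) in the 86, and fatty acid genes 2.19% and 1.69%. In non-cycling cells the 2 lists stood at 2.70% and 2.29%, and most of those of library 3 also had more S-phase UMIs. Whether the 31 cells were in S phase was not tested. *Fabp4* is in both lists and was the most abundant gene of each, at 13668 CPM over all cycling cells. These 2 differences are therefore not separate. Venous and endocardial genes stood at 0.205% and 0.339%, type I interferon genes at 0.148% and 0.207%, and fibroblast markers at 0.0483% (0.0436 to 0.0535) and 0.164% (0.158 to 0.170). Pan-endothelial genes, at 0.793% and 0.794%, and cycle inhibitors, at 0.559% and 0.562%, were within counting error. Chromosome proteins stood at 0.506% in the 31 cells with more S-phase UMIs and 0.996% in the 86 with more mitotic UMIs. These are sums over cells of 1 library for the most part, without replicates. Their intervals cover counting error only, and how far a few deep cells set the sums was not tested.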
